A study of Mus musculus with 33 samples.

Results

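The 10 genes described here encode proteins that neutrophils make as they mature in blood-forming tissue, most of them proteins of granules. Their rows were taken from the deposited table by gene symbol, 1 row for each gene, and make up 10 of its 56414 rows. They are read as 2 sets by role, the early granule genes Elane, Mpo and Prtn3 and the late granule genes S100a8, S100a9, Camp, Ngp, Ltf, Lcn2 and Mmp8. Of the late set, S100a8 and S100a9 encode a protein of the cytosol and are counted there by name only. RNA came from C57Bl/6 mice that carried no tumour. They were untreated or were given nicotinamide (NAM), which is vitamin B3 in its amide form, at 0.5% in the drinking water over 1, 3 or 14 d, and the study's methods give its mice as female. There are 33 libraries, 5 in each of the 4 groups labelled spleen and, among those labelled lymph node, 3 of untreated mice, 2 at 1 d, 4 at 3 d and 4 at 14 d.

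Granule proteins are made in waves. Promyelocytes, the progenitors in which granules first appear, transcribe the serine proteases neutrophil elastase (Elane) and proteinase 3 (Prtn3) and the enzyme myeloperoxidase (Mpo), which are packed into primary granules. Later precursors switch these genes off and transcribe the contents of secondary and tertiary granules. Transcripts of the first wave therefore mark granulocyte progenitors, which mice keep in the bone marrow and in the red pulp of the spleen, whereas transcripts of the second wave reach further into the life of the cell. In whole tissue, fewer cells of a kind and less RNA per cell cannot be told apart.

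The labels of the tissues went against their markers. Glycam1, a mucin of lymph node venules, ranged from 1.585 to 12.38 normalised read counts in the libraries labelled lymph node, while its lowest level under the spleen label was 108200. Spic, which red pulp macrophages of the spleen need, was at 6117 or more under the lymph node label and at 1295 or less under the spleen label. The tissues are therefore named only as labelled. Libraries held from 18325061 to 54830743 whole reads. Some libraries stood apart. Replicate 1 at 1 d under the lymph node label carried RNA of pancreas acinar cells, and replicate 3 at 1 d under the spleen label had far more Ly6g, a surface marker of neutrophils, than the other 19. Replicate 1 at 14 d under the lymph node label was high for late granule genes, and replicate 1 of the untreated group under the spleen label was low for 9 of the 10 genes. A normalised read count is the reads of a gene divided by the size factor of its library. The 2 labels were scaled separately, so changes were tested within a label, and between labels only changes, not levels, were compared by a test.

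The promoter windows of the early genes are shown because their transcripts moved together, with those of Ngp and Ltf from the late set for contrast. Each window is the RefSeq sequence (GRCm38.p6, the assembly that mm10 names) from 250 bases before the start to 50 bases after it, on the strand of the gene. All 10 genes matched 1 window each, of 32851 windows of 27025 genes. Capitals mark the letters searched for on either strand. For the ETS family, to which the myeloid factor PU.1 belongs, these were GAGGAA. For the progenitor factor MYB they were AACGG. For the C/EBP factors, which drive granule genes, they were TTGCNNAA. The TATA box, which places the start of transcription, was searched for as TATAAA. The windows lie at chr10:79886062-79886361 (Elane, plus strand), chr10:79879417-79879716 (Prtn3, plus), chr11:87793534-87793833 (Mpo, plus), chr9:110419558-110419857 (Ngp, plus) and chr9:111019042-111019341 (Ltf, plus).
Elane: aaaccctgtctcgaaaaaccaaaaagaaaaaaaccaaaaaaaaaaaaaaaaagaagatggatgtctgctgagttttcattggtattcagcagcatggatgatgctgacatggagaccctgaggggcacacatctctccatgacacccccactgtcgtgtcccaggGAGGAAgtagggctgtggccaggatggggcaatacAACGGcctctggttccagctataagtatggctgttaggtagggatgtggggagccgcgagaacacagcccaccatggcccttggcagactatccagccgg
Prtn3: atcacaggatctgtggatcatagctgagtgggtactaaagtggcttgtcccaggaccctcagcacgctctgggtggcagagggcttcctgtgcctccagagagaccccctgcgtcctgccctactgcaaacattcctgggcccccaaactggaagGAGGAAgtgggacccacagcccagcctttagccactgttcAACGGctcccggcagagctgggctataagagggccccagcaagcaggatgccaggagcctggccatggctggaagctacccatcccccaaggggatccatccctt
Mpo: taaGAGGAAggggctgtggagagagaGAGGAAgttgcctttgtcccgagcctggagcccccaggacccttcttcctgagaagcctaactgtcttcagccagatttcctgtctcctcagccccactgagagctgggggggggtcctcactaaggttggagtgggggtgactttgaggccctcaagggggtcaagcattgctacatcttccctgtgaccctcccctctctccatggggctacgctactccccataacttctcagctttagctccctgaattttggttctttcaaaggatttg
Ngp: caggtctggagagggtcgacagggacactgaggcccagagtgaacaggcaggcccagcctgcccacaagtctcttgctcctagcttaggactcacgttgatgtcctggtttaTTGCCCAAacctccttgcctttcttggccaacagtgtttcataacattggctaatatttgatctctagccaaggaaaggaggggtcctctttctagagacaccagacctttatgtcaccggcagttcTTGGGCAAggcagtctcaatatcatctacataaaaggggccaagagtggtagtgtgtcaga
Ltf: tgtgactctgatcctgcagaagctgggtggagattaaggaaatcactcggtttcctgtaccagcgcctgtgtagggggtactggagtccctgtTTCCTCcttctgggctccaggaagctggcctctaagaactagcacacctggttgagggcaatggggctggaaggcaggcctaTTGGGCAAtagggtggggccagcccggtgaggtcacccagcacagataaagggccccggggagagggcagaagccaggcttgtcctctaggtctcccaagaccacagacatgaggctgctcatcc

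Elane and Prtn3, neighbours on chromosome 10, both hold the ETS and the MYB letters, in that order. Counted from the RefSeq start, the ETS letters begin 85 bases before Elane and 95 before Prtn3, and the MYB letters 50 and 55 bases before. The deposited span of Elane begins 65 bases before its RefSeq start, and counted from there the ETS letters begin 20 bases before the start and the MYB letters 15 bases after it. For Prtn3 both starts are the same. Mpo on chromosome 11 holds the ETS letters at 247 and 224 bases and those of MYB nowhere in its window. The ETS letters were found in 3 of 3 early and 4 of 7 late genes, against 28.3% of all windows, and the MYB letters in 2 early and 0 late genes, against 17.4%. The C/EBP letters were found in 0 early and 5 late genes (S100a9, Ngp, Ltf, Lcn2 and Mmp8), against 10.8%. The TATA letters were found in S100a8, S100a9 and Mmp8, against 13.6%. No match overlaps another. A match describes letters in a window and no more.

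After 14 d of NAM, the early granule genes were lower in libraries labelled lymph node. Elane, the protease neutrophil elastase, lies on chromosome 10 between 79886247 and 79888216 (mm10). Counts of Elane were 534, 405 and 213 in the 3 untreated libraries, 624 and 407 at 1 d, 485, 434, 656 and 364 at 3 d, and 170.4, 142, 192 and 114 at 14 d. The 4 libraries at 14 d all lay below the lowest of the other 9. Prtn3, which encodes proteinase 3 and lies 3077 bases before Elane, had counts of 502, 489.6 and 229.8 in untreated libraries and of 137, 163, 183 and 118 at 14 d, and ranged from 291 to 626 at 1 and 3 d. Mpo, which encodes the enzyme that makes hypochlorous acid, lies on chromosome 11 from 87793784 to 87804411, where the antisense gene Gm11505 overlaps it. It had counts of 1142, 1038 and 492 in untreated libraries, 1172 and 579 at 1 d, 634, 683, 1227 and 564 at 3 d, and 266, 369, 296 and 199.6 at 14 d. For these genes too, no library at 14 d reached the level of any other library. Reads of Mpo and Gm11505 cannot be told apart, since nothing says whether the counting used strand.

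In log2 fold change from untreated to 14 d, Mpo fell by 1.59 (SE 0.31, limma adjusted p = 0.0217), Prtn3 fell by 1.37 (SE 0.27, adjusted p = 0.027) and Elane fell by 1.24 (SE 0.26, adjusted p = 0.037). These are 3.02-, 2.58- and 2.36-fold lower levels on the scale of log2(count + 1). limma called 3 of 3 early genes and 0 of 7 late genes lower, where 0.681% of all 18215 tested genes were called lower and 0.791% were called in either direction. Groups that did not overlap, with every library at 14 d below every untreated one, were found for 3 of 3 early and 0 of 7 late genes, against 6.02% of all tested genes.

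**Figure D1:**
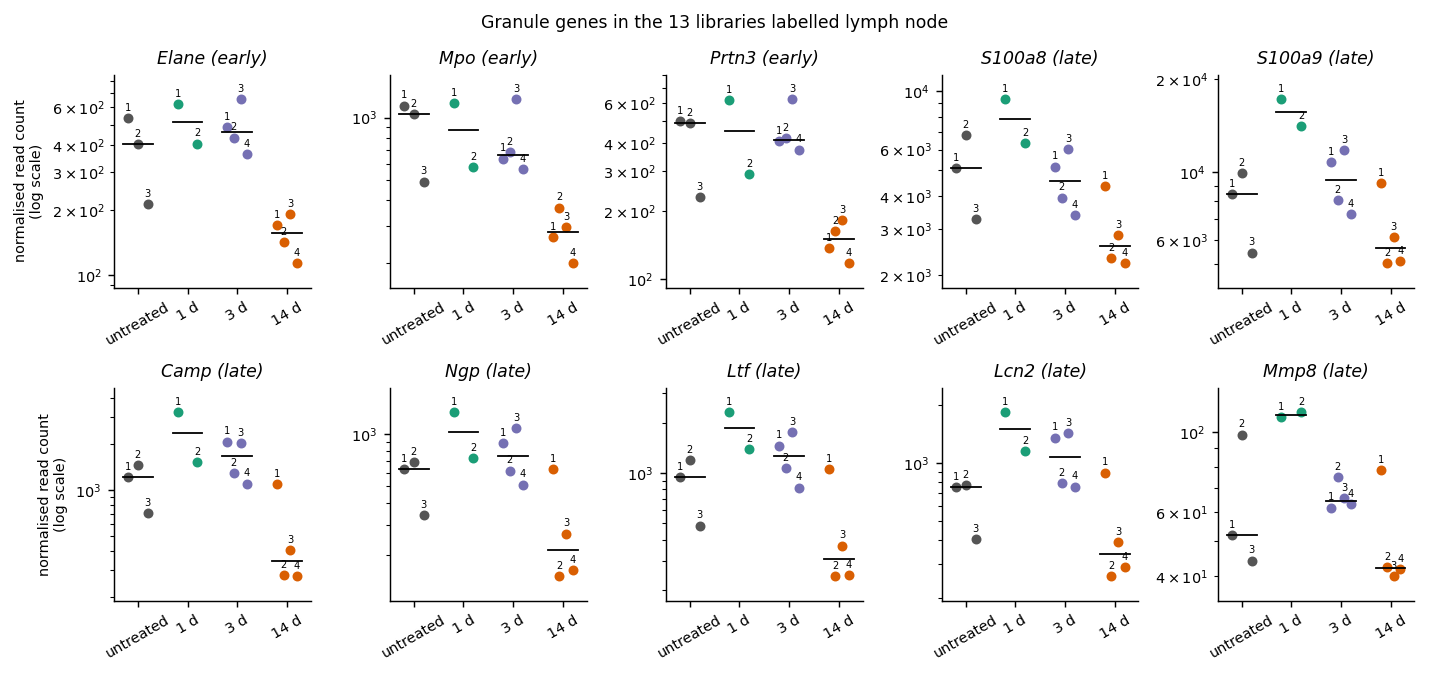
Normalised read count (log scale) of the 3 early and 7 late granule genes in the 13 libraries labelled lymph node, by group. Each point is 1 library with its replicate number, and the bar is the median. At 14 d the points of Elane, Mpo and Prtn3 lie below all others, and those of the late genes split into replicate 1 and the other 3.

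The call for the early genes rested on several libraries. Leaving out replicate 1 or replicate 2 of the untreated group, or replicate 4 at 14 d, left 0 early genes past the threshold, with log2 fold changes between -0.95 and -1.44. Without replicate 1 at 14 d, Mpo stayed past it and Elane and Prtn3 had an adjusted p of 0.0556 and 0.0593, and without replicate 2 at 14 d Elane had 0.0634. With only the 2 groups compared in the fit, 0 early genes passed, and the adjusted p was 0.0567 for Mpo, 0.0683 for Prtn3 and 0.113 for Elane. Without the filter on low values, Elane had an adjusted p of 0.0605. edgeR and DESeq2 on whole reads called 3 of 3 early genes, where they called 0.878% and 2.1% of all genes. The sign was kept in every one of these fits.

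Of the late granule genes, limma called 0 of 7 at 14 d under the lymph node label. Replicate 1 had the highest level of the 4 libraries for 7 of 7, and the other 3 lay below every untreated library for 6 of 7, S100a9 being the exception. Camp encodes the antimicrobial peptide CRAMP of secondary granules, on chromosome 9 from 109847375 to 109849456. Its counts were 1219.7, 1462 and 704 in untreated libraries, 3212 and 1515 at 1 d, 2069, 1287, 2024 and 1102 at 3 d, and 1087, 279, 405 and 273 at 14 d. Ltf encodes the iron-binding protein lactoferrin, on chromosome 9 from 111019290 to 111042766. It had counts of 946, 1192 and 485 in untreated libraries and of 1052, 242, 368 and 247 at 14 d. Replicates 2, 3 and 4 lay below every untreated library for both genes, and replicate 1 lay within the untreated range. Ngp (neutrophilic granule protein, chromosome 9 from 110419808 to 110423010) followed the same order, with 629 in replicate 1 and 151 to 266 in the others, against 343 to 692.5 in untreated libraries. Lcn2, a lipocalin that binds the iron carriers of bacteria (chromosome 2 from 32384637 to 32387771), had 896 in replicate 1, above every untreated library, and 259 to 389 in the others.

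The log2 fold change at 14 d was -1.33 (SE 0.40) for Camp, -1.07 (SE 0.41) for Ltf, -1.06 (SE 0.40) for Ngp, -0.77 (SE 0.25) for S100a8, -0.62 (SE 0.35) for Lcn2, -0.32 (SE 0.21) for S100a9 and -0.32 (SE 0.27) for Mmp8. The sign was negative for 7 of 7, with a median of -0.77 beside 0.00 over all tested genes, but the limma adjusted p ranged from 0.153 to 0.698. An unadjusted p under 0.05 was found for 4 of 7, and for 2157 of all 18215 tested genes. Without replicate 1 at 14 d, Camp (-1.78, adjusted p = 0.0155), Ltf (-1.54, adjusted p = 0.0339) and Ngp (-1.49, adjusted p = 0.0397) passed the threshold in limma. A call for the early and not for the late set does not show that they differ, and that difference was not tested. Ly6g was at 64.2 in replicate 1 and at 20.6 to 27.6 in the others at 14 d.

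S100a8 and S100a9 encode the 2 chains of calprotectin, a calcium-binding protein that fills the cytosol of neutrophils and is also found in monocytes. They lie side by side on chromosome 3, S100a8 from 90669070 to 90670034 and S100a9 from 90692631 to 90695721. S100a9 had counts of 8468.5, 9913 and 5449.8 in untreated libraries, 17241 and 14102 at 1 d, 10727, 8081, 11794 and 7273 at 3 d, and 9193, 5045, 6139 and 5128 at 14 d. S100a8 had 3269.7 to 6789 in untreated libraries, 6348 and 9324 at 1 d, 3375 to 6040.4 at 3 d, and 2226.5 to 4348 at 14 d. For both genes the levels at 14 d overlapped those of untreated libraries, with 3 of 4 libraries below all untreated ones for S100a8 and 2 of 4 for S100a9. Mmp8, which encodes neutrophil collagenase (chromosome 9 from 7558429 to 7568486), had the lowest counts of the late genes, with 44.2 to 98.1 in untreated libraries and 78.5, 42.3, 40.0 and 41.9 at 14 d.

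Averaged over genes as log2(count + 1) and set against the untreated mean of the label, the early set was at -1.40 ± 0.29 (SD, n = 4) at 14 d and the late set at -0.78 ± 0.70 (SD, n = 4). The difference, early minus late, was -0.62 ± 0.72 (SD, n = 4). It ranged from -1.63 in replicate 1 to 0.03 in replicate 2, and without replicate 1 the mean difference was -0.28. At 1 d the early set was at 0.20 and the late set at 0.98, with a difference of -0.93 and -0.62 in the 2 libraries. At 3 d the sets were at 0.15 ± 0.39 and 0.38 ± 0.37 (SD, n = 4). These values are descriptions and were not tested.

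**Figure D2:**
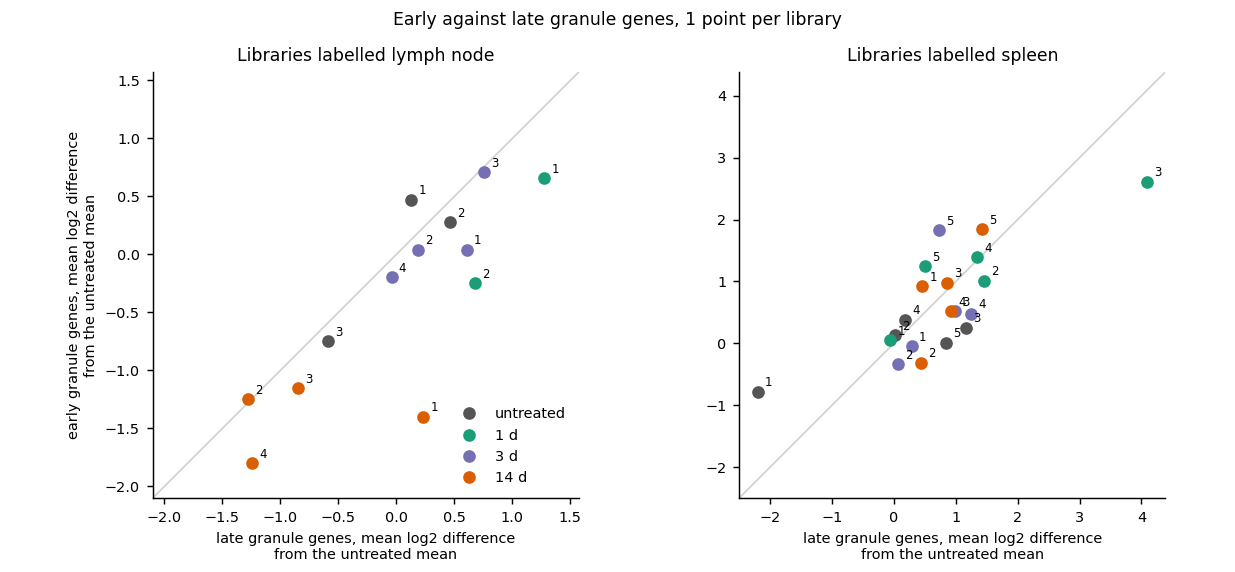
Mean log2 difference of the early granule genes from the untreated mean (vertical axis) against that of the late granule genes (horizontal axis), 1 point per library with its replicate number, and the line of equal change in grey. Under the lymph node label the 4 libraries at 14 d lie lowest on the vertical axis, between -1.80 and -1.15. Under the spleen label replicate 3 at 1 d lies far from the rest, at 2.61 and 4.09.

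After 1 d under the lymph node label, values of most late genes were above all untreated ones, while those of the early genes overlapped them. The 2 libraries at 1 d lay above all 3 untreated libraries for 6 of 7 late genes (S100a9, Camp, Ngp, Ltf, Lcn2 and Mmp8) and 0 of 3 early genes, against 17.1% of all tested genes. Log2 fold changes of the 7 late genes ran from 0.67 for S100a8 to 1.24 (SE 0.42) for Lcn2, and those of the early genes from -0.02 to 0.49. limma called 0 of 10 genes, where 1.21% of all were called. The smallest adjusted p was 0.0652, for S100a9 (1.02, SE 0.26), 6 of 10 had an unadjusted p under 0.05, where 2726 of all 18215 did, and edgeR and DESeq2 on whole reads called 0. Replicate 1 at 1 d also carried RNA of pancreas acinar cells, with a summed marker count of 125351 against 1093 in replicate 2, and the part of this in the result was not tested. With replicate 2 alone at 1 d, S100a9 was at 0.87 and Camp at 0.49.

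Sums of markers of other cells were read at 1 d as well under this label. Over all 18215 tested genes, 17.1% had both libraries at 1 d above all untreated ones, and 2820 genes had both below. The 7 neutrophil markers summed to 5489 and 5620 at 1 d, inside the untreated range of 4956 to 6215, with 1 of 7 called higher. The 7 monocyte and macrophage markers summed to 49620 and 52919, against 41547 to 41813 in untreated libraries. Markers of eosinophils, basophils and mast cells summed to 11435 and 10534, against 7287 to 8007, and lymph node markers to 15258 and 17018, against 8117 to 10439. Sums of T cell markers (29313 to 31044 against 25764 to 27353) and of megakaryocyte and platelet markers (11781 to 14099 against 11217 to 11577) also lay above all untreated ones, and that of erythroid markers lay below (17443 to 22924 against 27400 to 36183). Of these other lists, limma called 1 of 6 lymph node markers higher and 0 markers of the rest, where it called 0.884% of all genes higher. The part of these markers in the levels of the late granule genes and of the mature neutrophil list at 1 d was not tested.

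At 3 d limma called 0 of 10 genes under the lymph node label, where 1.24% of all were called, and 1 had an unadjusted p under 0.05 (Lcn2, 0.75, SE 0.35), where 2694 of all 18215 did. edgeR and DESeq2 called 0 too. Log2 fold changes ran from -0.17 for Mpo to 0.75, with a median of 0.34. Ltf had 1391 and 2303 normalised read counts at 1 d and 818 to 1751 at 3 d, and Lcn2 1162 and 1841 at 1 d and 757 to 1431 at 3 d. Ngp had 726 and 1337 at 1 d and 512 to 1089.6 at 3 d, and Mmp8 109.98 and 113 at 1 d and 61.9 to 75.2 at 3 d. By median, levels at 3 d lay between untreated and 1 d for 6 of 7 late genes and for Elane, and the ranges at 3 d overlapped the untreated ones for 10 of 10 genes. The median at 3 d was below the untreated one for S100a8 (4555 against 5084), Mpo (658.5 against 1038) and Prtn3 (414.3 against 489.6). Compared directly, levels at 14 d were lower than at 3 d for 10 of 10 genes by sign. Elane passed the threshold, with a log2 fold change of -1.64 (SE 0.24, limma adjusted p = 0.0371), in a comparison where 0.011% of all genes were called. Prtn3 followed with -1.59 (SE 0.25, adjusted p = 0.0567), Mpo with -1.42 (SE 0.28, adjusted p = 0.117) and Camp with -1.86 (SE 0.37, adjusted p = 0.117). For these 4 genes every library at 14 d lay below every library at 3 d, against 1.75% of all genes. The call of Elane was lost without replicate 2 or 4 at 14 d, without replicate 1, 2 or 3 at 3 d, without the filter on low values (adjusted p = 0.0745) and in edgeR (adjusted p = 0.0704), and DESeq2 called the 3 early genes, where it called 0.28% of all. Without replicate 1 at 14 d, 5 of the 10 passed, where 0.0494% of all did.

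**Figure D3:**
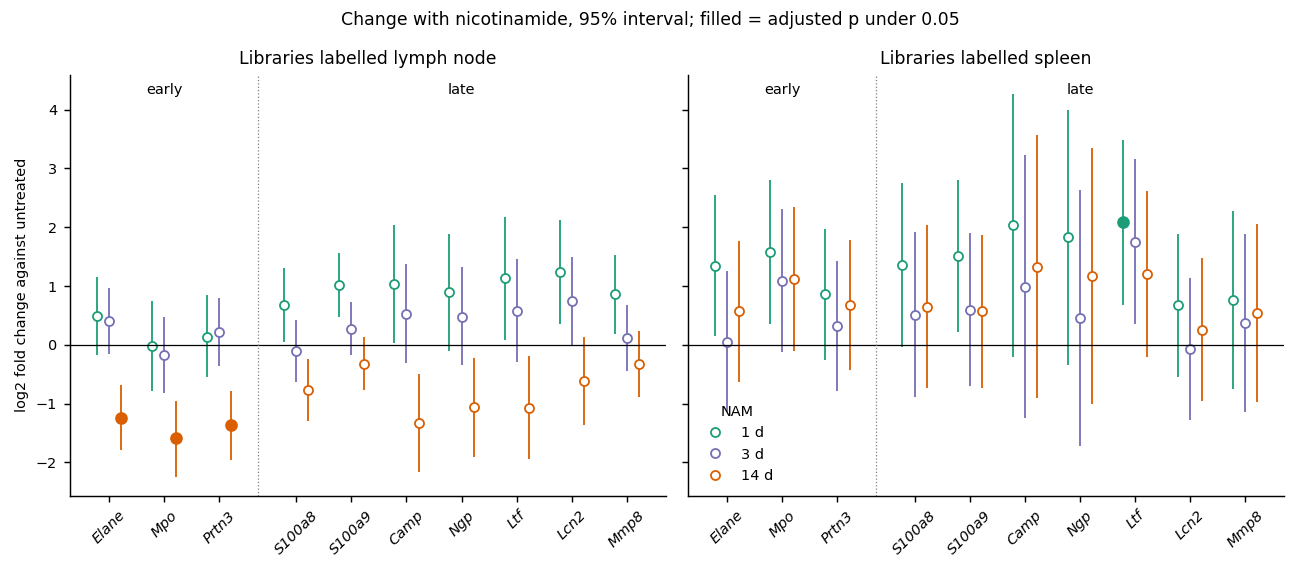
Log2 fold change from untreated (points) with its 95% interval from limma, for the 10 genes at 1, 3 and 14 d and both labels. Filled points have an adjusted p under 0.05, which holds for Elane, Mpo and Prtn3 at 14 d under the lymph node label and for Ltf at 1 d under the spleen label.

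Markers of other cell types were read at 3 and 14 d under the lymph node label as well. The 12 erythroid markers summed to 27400 to 36183 in untreated libraries, to 2870 to 13720 at 3 d and to 10187 to 15608 at 14 d. Of these, limma called 12 of 12 lower at 3 d and 5 of 12 at 14 d. Of all 18215 tested genes it called 165 and 124 lower. The ranges of the erythroid sum at 3 and 14 d overlapped. The early granule genes had a median log2 fold change of 0.22 at 3 d and of -1.37 at 14 d. The 8 rows of megakaryocyte and platelet markers summed to 11217 to 11577 in untreated libraries and to 6359 to 9724 at 14 d, with 0 of 8 called. The 7 neutrophil markers summed to 4956 to 6215 in untreated libraries and to 5173 to 6460 at 14 d, so these ranges overlapped, and none was at 0 in any group. The 9 markers of eosinophils, basophils and mast cells summed to 7287 to 8007 and to 5116 to 7660. The 6 spleen markers summed to 71456 to 81691 in untreated libraries, to 50129 to 71344 at 3 d and to 42565 to 63000 at 14 d, below every untreated library at both times, with 1 of 6 called lower at 14 d. The pancreas acinar markers summed to 1196 to 1270 in untreated libraries, to 804 to 1097 at 3 d and to 628 to 987 at 14 d, with 0 of 9 rows called, and 5 of the 9, Pnlip, Amy2b, Cela3b, Cela2a and Ctrb1 // Mir7076, were at 0 in every untreated and 14 d library. The part of these markers in the fall of the early genes was not tested.

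Related genes that are no members were read from lists. At 14 d under the lymph node label, 5 of 12 primary granule and progenitor genes had an unadjusted p under 0.05. This held for 11.8% of all genes. Of these 12, limma called 1 lower, where 0.681% of all genes were, with a list median of -0.08 beside 0.00. The gene was Myb, a transcription factor of progenitors, which fell by 0.51 (SE 0.09, adjusted p = 0.0147) from 1722 ± 189.2 (SD, n = 3) to 1204 ± 122 (SD, n = 4). Ctsg, the primary granule protease cathepsin G, had a log2 fold change of -1.13 (SE 0.30, adjusted p = 0.0989), Prss57 -0.75 (SE 0.45, adjusted p = 0.56) and Ms4a3, a gene of granulocyte progenitors, -0.74 (SE 0.32, adjusted p = 0.374). Of 12 transcription factor genes of this lineage, limma called 0 and 3 had an unadjusted p under 0.05, where 11.8% of all genes did at 14 d. Cebpe, needed for secondary granules, had a log2 fold change of -0.80 (SE 0.25, adjusted p = 0.184) and Gfi1 of -0.08 (SE 0.15, adjusted p = 0.892). Of 12 cell cycle genes, 12 had a negative sign, with a median of -0.34. An unadjusted p under 0.05 was found for 8 of 12, beside the same 11.8%. In limma 1 of 12 was called lower, the nucleotide enzyme gene Rrm2 (-0.69, adjusted p = 0.0486), beside the 0.681% of all genes. With each of the 7 libraries left out in turn, Myb passed in 5 fits and Rrm2 in 1.

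Of the genes of mature neutrophils, some were higher at 1 d under the lymph node label. In limma, 6 of 24 tested rows were called higher, where 0.884% of all genes were, and 0 lower, with a median of 0.47 beside 0.00 over all genes. Il1r2, a decoy receptor of interleukin 1, rose by 1.15 (adjusted p = 0.0297), with 97.17 ± 9.52 (SD, n = 3) untreated and 218.2 ± 49.03 (SD, n = 2) treated, and the row Mrgpra2b // Mrgpra2a by 1.68 (adjusted p = 0.0113), from 22.6 to 74.34. Clec4d (0.98, adjusted p = 0.0498) and the histamine-making enzyme gene Hdc (0.92, adjusted p = 0.0496) passed as well. Without replicate 1 at 1 d, the library with pancreas RNA, 0 of 24 passed and the median was 0.54, with Il1r2 at 1.38 (adjusted p = 0.0918) and Mrgpra2b // Mrgpra2a at 1.83 (adjusted p = 0.0614). Without replicate 2, 0 of 24 passed too. Each of these fits has 1 library at 1 d, which is assumed to vary like the libraries of the other groups. The summed neutrophil markers at 1 d lay inside the untreated range, as given above, and those of monocytes and macrophages and of eosinophils, basophils and mast cells above it. Retnlg, an abundant transcript of blood neutrophils, had a log2 fold change of -0.38 at 1 d (SE 0.18, adjusted p = 0.319). Its mean was 2888 untreated and 2175 at 1 d, a large part of the summed neutrophil markers. In the same sum, Ly6g had 1.33 (SE 0.53, adjusted p = 0.246) and Cxcr2 0.36 (SE 0.17, adjusted p = 0.329). Csf3r had 0.31 (SE 0.18, adjusted p = 0.441) and Mmp9 -0.07 (SE 0.21, adjusted p = 0.922). For Ly6g and Csf3r, both libraries at 1 d lay above all untreated ones. At 14 d, 0 of 24 rows were called, 6 had an unadjusted p under 0.05, where 11.8% of all genes did, and the median was 0.18. Retnlg was at 2888 ± 700 (SD, n = 3) and 3015 ± 591.6 (SD, n = 4), Csf3r, the receptor of the growth factor G-CSF, had 0.28 (SE 0.15, adjusted p = 0.501) and Cxcr2 0.19 (SE 0.14, adjusted p = 0.655). Of 24 secondary and tertiary granule genes, 0 of 23 tested rows were called at 14 d, 6 had an unadjusted p under 0.05, beside the same 11.8%, and the median was 0.02. Chil3 had 0.47 (SE 0.31), Mmp9 -0.23 (SE 0.18), Cd177 -0.45 (SE 0.24) and Ly6g 0.06 (SE 0.45), with an adjusted p from 0.505 to 0.975. At 1 d, 1 of 23 of these rows was called higher, Serpinb1a, an inhibitor of granule proteases (0.38, SE 0.09, adjusted p = 0.0416), and 1 of 12 primary granule and progenitor genes, Srgn, whose proteoglycan holds granule contents (0.39, SE 0.09, adjusted p = 0.0435). Neither passed without replicate 1 at 1 d (adjusted p = 0.0614 and 0.231) or without any other library of the comparison.

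Regulators of the lineage were listed apart from the granule genes. At 1 d under the lymph node label, limma called 1.21% of all genes. Of 12 transcription factor genes, 1 was called, with a list median of 0.06. It was Cebpd, a C/EBP factor, which rose by 1.13 (SE 0.10, adjusted p = 1.53e-05). Of growth factor, chemokine and receptor genes, 1 of 12 tested rows was called, beside the same 1.21%, with a median of 0.16. It was Cxcr4, the chemokine receptor that holds neutrophils in marrow, which rose by 1.56 (SE 0.15, adjusted p = 7.12e-05). Which cells carried the RNA of Cebpd and Cxcr4 was not tested. Without replicate 1 at 1 d, Cebpd was at 1.14 (adjusted p = 0.00105) and Cxcr4 at 1.65 (adjusted p = 0.00499), where the spread comes from the other groups alone.

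Within the 13 libraries labelled lymph node, pairs of early genes had a higher r with each other than any pair of an early and a late gene. Pearson's r of log2 values ran from 0.93 to 0.97 over the 3 early pairs, from 0.78 to 0.99 over the 21 late pairs and from 0.52 to 0.90 over the 21 mixed pairs. With group means subtracted, the medians were 0.90, 0.95 and 0.53. Of 18215 rows, those most like the early set were Ctsg (r = 0.97) and Ms4a3 (r = 0.92), then Rgs18, Mcpt8 // Mir6949, Umps and Dio2 (0.90 to 0.87). Those most like the late set were Itgb2l (r = 0.97), an integrin chain, and Cd177 (r = 0.91), then Prss57, Dnase2a // Gm38426, Prg2 and Epx (0.90 to 0.88). The points share their libraries and depth, and these values are descriptions.

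In untreated libraries, the median level was lower under the spleen label for 10 of 10 genes, and the ranges of the labels did not overlap for 8. In these libraries, the median of S100a8 was 2.89 RPM (reads of a gene scaled by all reads of its library) there and 143 RPM under the lymph node label, a ratio of 49.5. The ratio was 46.1 for S100a9, 30.3 for Mpo, 28.5 for Ngp, 28.3 for Camp, 21.2 for Elane, 10.4 for Mmp8, 6.39 for Prtn3, 3.67 for Ltf and 1.66 for Lcn2. These are levels, set across labels that were scaled separately in the deposited table, and the ratio was not tested. Ltf and Lcn2 overlapped in untreated libraries, with Ltf at 1.09 to 17.6 RPM under the spleen label and 13.9 to 34.2 RPM under the lymph node label, and Lcn2 at 3.11 to 29.5 and 11.6 to 22.1 RPM. At 14 d the median of Ltf was higher under the spleen label, at 13.9 against 8.86 RPM, with overlapping ranges. Camp and Ngp had 0 reads in replicate 1 of the untreated group under the spleen label, which allows up to 5.19 normalised read counts (0.164 RPM, counting error only).

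At 1 d under the spleen label, the sign of the change was positive for 10 of 10 genes, with log2 fold changes from 0.67 for Lcn2 to 2.08 for Ltf. limma called 1 of 10, Ltf, where 16.6% of all 18243 tested genes were called. edgeR called 3 of 10, where it called 16.3% of all, and DESeq2 called 6 of 10, where it called 18.5%. Ltf had counts of 34.6, 522, 138, 369 and 213 in the 5 untreated libraries and of 242, 1939, 1755, 954 and 347 at 1 d. The groups overlapped, with 3 of 5 treated libraries above all untreated ones. The log2 fold change was 2.08 (SE 0.67, adjusted p = 0.0399). The call was lost without replicate 1, 3 or 5 of the untreated group and without replicate 2, 3 or 4 at 1 d (adjusted p 0.06 to 0.116). It was also lost without the filter on low values (adjusted p = 0.0633), with library weights (1.56, adjusted p = 0.0776) and with only the 2 groups in the fit (adjusted p = 0.0947), where Elane was the 1 gene called (adjusted p = 0.0273).

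Replicate 3 at 1 d stood far above the rest for 5 of the other late genes, Lcn2 being the exception. S100a9 was at 4596 in that library, at 174 to 594 in the other 4 at 1 d and at 111 to 437 in untreated libraries. Camp was at 1115 against 25.0 to 101 and 0 to 89.0, and Mmp8 at 86.4 against 1.389 to 10.96 and 1.73 to 28.2. The early genes were highest there too, with Mpo at 283 against 26.9 to 115 and Elane at 98.9 against 23.1 to 45.8. Ly6g was at 46.1 in this library and at 5.19 or less in the other 19 labelled spleen. Without it the log2 fold change fell from 1.51 to 0.74 for S100a9, from 1.36 to 0.61 for S100a8, from 2.03 to 1.13 for Camp and from 1.58 to 1.13 for Mpo, and 0 of 10 genes passed. Without replicate 1 of the untreated group, where Camp and Ngp had 0 reads, the log2 fold change at 1 d was 0.92 for Camp and 0.86 for Ngp (1.83 with it), and 0 of 10 genes passed. At 3 d it was then -0.13 for Camp and -0.51 for Ngp, against 0.99 and 0.46 with that library.

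**Figure D4:**
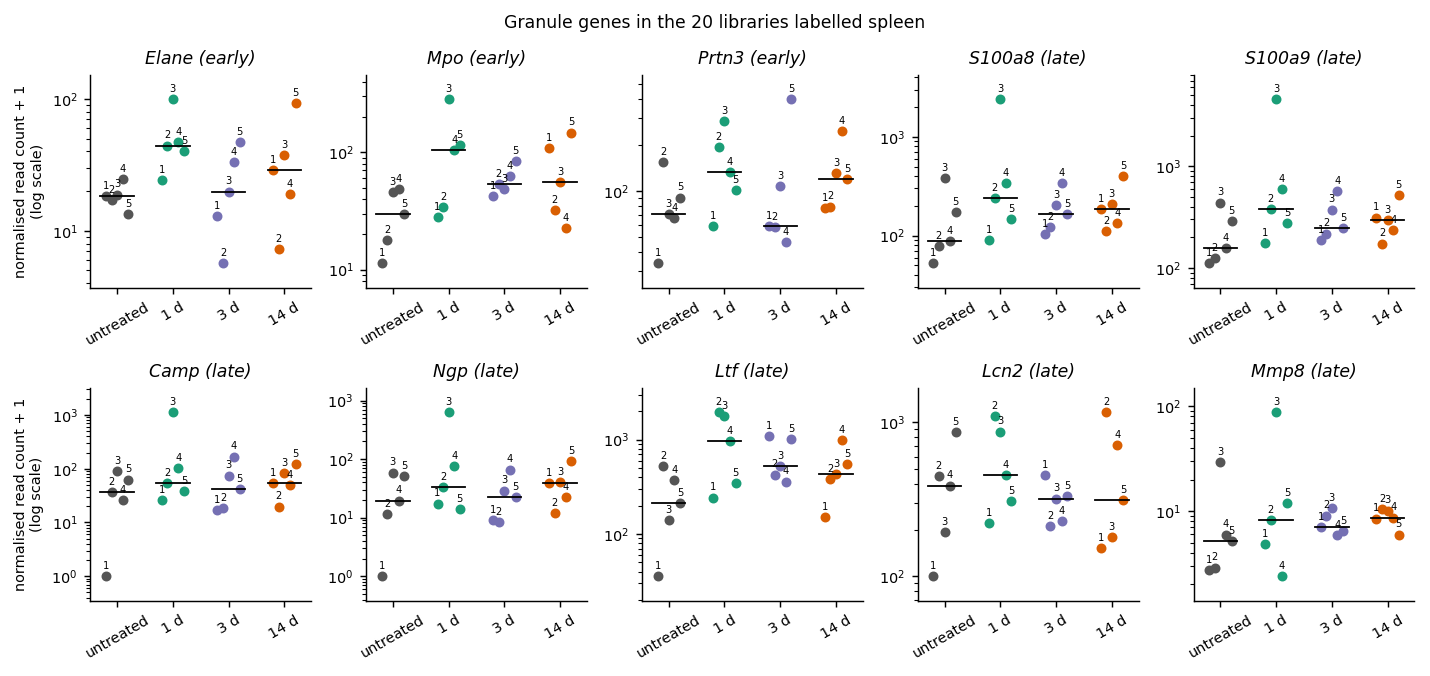
Normalised read count + 1 (log scale) of the 10 granule genes in the 20 libraries labelled spleen, by group. Each point is 1 library with its replicate number, and the bar is the median. Replicate 3 at 1 d lies highest for 8 of the 10 genes at that time, and replicate 1 lies lowest in the untreated group for 9 of them, all but Elane.

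At 3 d limma called 0 of 10 genes under the spleen label, where 5.55% of all were called, and 1 had an unadjusted p under 0.05 (Ltf, 1.75, SE 0.67, adjusted p = 0.128), where 4007 of all 18243 did. At 14 d it called 0 of 10, where 0% of all were called, and 0 of 10 had an unadjusted p under 0.05. edgeR and DESeq2 called 0 at both times. Elane had 12.4 to 23.6 (median 17.3) in untreated libraries, 4.70 to 46.1 (median 18.8) at 3 d and 6.27 to 91.9 (median 28.0) at 14 d. Mpo had 10.4 to 47.2 (median 28.9), 41.3 to 83.5 (median 52.4) and 21.7 to 146 (median 54.5), and Prtn3 32.9 to 154 (median 69.7), 45.6 to 399.7 (median 58.0) and 76.6 to 246 (median 119). Each of these ranges overlapped that of the untreated group, and the spread over libraries was wider at 14 d than in untreated libraries for Elane and Mpo. Ltf had 359 to 1090.2 (median 526) at 3 d and 149 to 993 (median 426) at 14 d. S100a9 stayed between 172 and 568 at these times, with a median of 247 at 3 d and 292 at 14 d. The early genes had log2 fold changes of 0.57 (Elane), 0.68 (Prtn3) and 1.12 (Mpo) at 14 d, with 95% intervals of -0.63 to 1.77, -0.43 to 1.79 and -0.10 to 2.34.

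The difference between the labels was tested as an interaction. At 14 d, the change under the spleen label minus that under the lymph node label was positive for 10 of 10 genes. It was 2.72 (SE 0.80) for Mpo, 2.05 (SE 0.72) for Prtn3 and 1.80 (SE 0.76) for Elane, with a p of 0.00184, 0.00818 and 0.0246 and a limma adjusted p of 0.347, 0.667 and 0.889. limma called 0 of 10 genes at 14 d, where 0.14% of 17147 genes were called, and 4 had an unadjusted p under 0.05, where 4.85% of all did. At 1 and 3 d it called 0 of 10, where 1.69% and 0.735% were called, and 0 had an unadjusted p under 0.05. The difference between the labels thus failed the adjustment for each gene.

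Under the spleen label, 3 of the 10 genes followed the adipocyte markers, which include Adipoq and Cfd. The summed adipocyte count ranged from 34344 in replicate 1 of the untreated group to 472854 in replicate 2 at 1 d. Over the 20 libraries, the mean log2 value of these markers was correlated with Ltf (Pearson's r = 0.81, permutation p = 3e-05, adjusted p = 0.0003 over 10 genes; Spearman's rho = 0.77, permutation p = 0.00014, adjusted p = 0.00125). The same held for Lcn2 (r = 0.75, permutation p = 0.00011, adjusted p = 0.00055, and rho = 0.74, permutation p = 0.00025, adjusted p = 0.00125). For Prtn3, r was 0.59 (permutation p = 0.00692, adjusted p = 0.0231) and rho 0.59 (permutation p = 0.00729, adjusted p = 0.0243). For the other 7 genes r ran from -0.07 to 0.19, with an adjusted p of 0.896. After removal of the 2 libraries with the most extreme adipocyte mean, r was 0.67 for Ltf, 0.60 for Lcn2 and 0.44 for Prtn3. With the group means subtracted it was 0.80, 0.75 and 0.53.

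The 20 libraries were also divided by the sign of their score on principal component 2, a cut that always gives 2 sets. The upper side held 9 libraries, with all those at 1 d, and the lower side 11, with all untreated ones. Within these sets r was 0.66 and 0.90 for Ltf, 0.65 and 0.83 for Lcn2 and 0.57 and 0.57 for Prtn3. With the adipocyte mean in the limma model, the log2 fold change of Ltf at 1 d was 1.02 (adjusted p = 0.0972) and that of Mpo was 1.84 (adjusted p = 0.0349), where 21.7% of all genes were called. Lcn2 was then at -0.19 and Prtn3 at 0.30, against 0.67 and 0.86 without this term, so 9 of 10 genes and not 10 kept a positive sign.

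**Figure D5:**
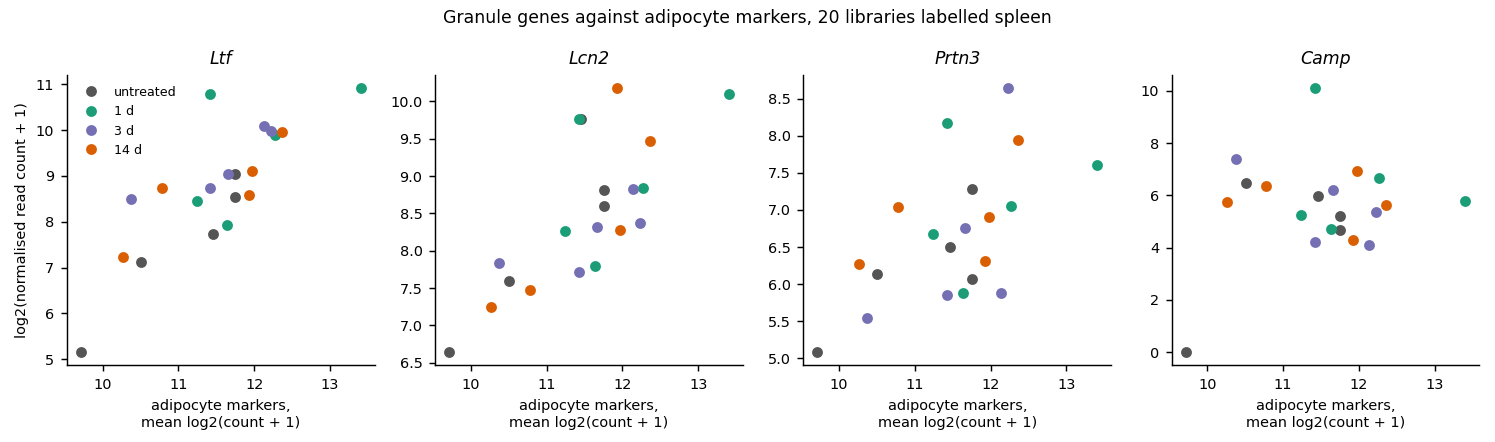
Log2(normalised read count + 1) of Ltf, Lcn2, Prtn3 and Camp (vertical axes) against the mean log2 value of the adipocyte markers (horizontal axes) in the 20 libraries labelled spleen, coloured by group. Ltf and Lcn2 rise with the markers, with r of 0.81 and 0.75, and r of Camp is 0.19, with 0 reads in replicate 1 of the untreated group.

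At 1 d under the spleen label, limma called 2 of 11 primary granule and progenitor rows, 2 of 21 secondary and tertiary granule rows, 1 of 20 mature neutrophil rows and 1 of 12 transcription factor rows, where 16.6% of all genes were called. It called Csf3r lower (-0.59, SE 0.19, adjusted p = 0.0373), and among secondary and tertiary granule genes Anxa1 (0.60, SE 0.17, adjusted p = 0.0182) and Cybb (0.33, SE 0.10, adjusted p = 0.0326) higher. Of the progenitor genes, Cd34 fell by 0.44 (adjusted p = 0.00532) and Myb by 0.25 (adjusted p = 0.0386), and of the transcription factors Runx1 fell by 0.80 (adjusted p = 0.00499). The chemokine gene Cxcl15 was higher, at 128.1 ± 142.3 (SD, n = 5) in untreated libraries and 518.8 ± 401.3 (SD, n = 5) at 1 d (2.63, SE 0.82, adjusted p = 0.0341), 1 of 3 called of 9 rows of growth factors, chemokines and receptors. With each of the 10 libraries left out in turn, Cd34, Anxa1 and Runx1 passed in 10 fits, Cxcl15 in 5, Cybb in 4, Csf3r in 3 and Myb in 1. The rows most like the late set over these libraries were Chil3 (r = 0.84), Clec10a (r = 0.77), Ica1, Retnlg, Fbxo6 // Mir7022 and Fpr3 // Fpr2 (0.75 to 0.74). For the early set they were Tsfm (r = 0.73), Hexim1, Oas1a, Exoc3l, Tmem14c and Ppp2ca (0.71 to 0.69).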

How the data were processed

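RNA of the 33 libraries was prepared as polyA libraries and sequenced in paired-end mode. The values are a linear signal deposited by the authors in 1 table, the reads of each gene over a DESeq2 size factor of the library. The submitters' processing notes name mm10 and STAR 2.4.0, and strand use is not given in the sources used here. Groups and replicate numbers came from the sample titles, and 0 columns of library values were left unmapped. Nothing says whether libraries of a group came from separate animals or pools, so p-values measure the spread between libraries. Whole reads were recovered from the steps of the low values (100% within 0.1 of a whole read).

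The log2 of each value + 1 entered limma 3.58.1 (R 4.3.3), with a trend, 4 groups of a label in 1 fit, rows with a mean of at least 10, a two-sided test and Benjamini-Hochberg adjustment over all tested rows (threshold 0.05). Adding 1 makes the fold change of low genes too small. The difference between the labels came from 1 fit of all 33 libraries, over rows with a mean of at least 10 in both labels. The fit within a label was also run on simulated reads with known changes, as a check of the code only. Correlations used 100000 permutations, or exact enumeration for 9 libraries (scipy 1.17.1).

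The members, lists and markers were chosen with earlier results of these data known. The named genes are the 10 members, up to 4 rises and 4 falls past the threshold per list and comparison, 12 anchor genes given whatever their values, and the 6 rows most like each set per label. The report names some of these. The comparison of 14 d with 3 d, the adipocyte term and the leaving out of libraries for the list genes were added after the data were seen. Alternatives covered the pseudocount (0.1, 5), the filter (none, 50), quantile and TMM scaling, library weights, the groups in the fit, blocking on the replicate number, leaving out each replicate, calling by an unadjusted p up to 0.05 plus a 1.5-fold change, edgeR 4.0.16 and DESeq2 1.42.0. Depth limits the precision of genes with few reads, such as Mmp8 and Elane under the spleen label.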

Additional observations from a re-analysis of the deposited data

Results flagged for a closer look

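Of 60 sets of 4 or 5 libraries (10 genes in the groups of that size), 10 held a library far from the others by Dixon's test. The test was run on counts without a log, and all flagged values were on the high side. The sets also share libraries, so the usual rate of about 1 in 20 by chance does not apply. Under the spleen label, replicate 3 at 1 d was far above the rest for S100a8 (2399 normalised read counts, others 88.5 to 342), S100a9 (4596, others 174 to 594), Camp (1115, others 25.0 to 101), Ngp (626, others 13.1 to 75.0) and Mmp8 (86.4, others 1.389 to 10.96). In the untreated group, replicate 3 was high for Mmp8 (28.2, others 1.73 to 4.97), and at 3 d replicate 5 was high for Prtn3 (399.7, others 45.6 to 107). Under the lymph node label at 14 d, replicate 1 was high for Camp (1087, others 273 to 405), Ltf (1052, others 242 to 368) and Mmp8 (78.5, others 40.0 to 42.3). No early granule gene was in this list under the lymph node label.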

How the results depend on the processing

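Over 1364 refits of single genes, 0 called changes turned direction and 1297 kept their side of the threshold. Most of these were of changes that were not called. A call was lost in 36 refits and gained in 31. The calls at 14 d under the lymph node label held as follows, over other settings and then with a library left out. Mpo kept its call in 9 of 11 and 4 of 7 fits, and Prtn3 in 9 of 11 and 3 of 7. Elane kept it in 8 of 11 and 2 of 7. For 14 d against 3 d, Elane kept it in 9 of 11 and 3 of 8. Ltf at 1 d under the spleen label kept it in 8 of 12 and 4 of 10. Under the lymph node label at 14 d, 3 genes were called, 0 with a replicate block and 0 with only the 2 groups compared (55 of all genes were then called, against 144), 7 by unadjusted p with a 1.5-fold change (3.46% of all genes), and 0 to 4 with each replicate left out. With the block, the adjusted p of Mpo was 0.0567, of Elane 0.0624 and of Prtn3 0.0738. The replicate numbers were not taken to pair the libraries, since not every same-numbered pair of deviations had r over 0.1. This held for 0 of 16 pairs under the lymph node label (-0.107 to 0.079) and for 13 of 30 under the spleen label (-0.496 to 0.468), where it held for 4 of 5 numbers between untreated and 1 d, untreated and 14 d, and 14 and 1 d, and for at most 1 of 5 with 3 d. At 14 d against 3 d, 1 gene was called, 0 without a filter, 2 with library weights, 2 with the replicate block, 2 with only the 2 groups, 0 in edgeR, 3 in DESeq2, 9 by unadjusted p (1.53% of all), and 0 to 5 with each replicate left out. At 1 d, 0 were called, 2 (S100a9 and Lcn2) with only the 2 groups and 6 by unadjusted p (4.91% of all), and 0 to 0 with a replicate left out (where 1 library is left at 1 d, it is assumed to vary like the other groups). At 3 d, 0 were called, and 1 by unadjusted p (3.38% of all). Under the spleen label at 1 d, 1 gene was called, 0 without a filter (7.1% of all), 3 with library weights, without Ltf (21.6%), 2 with the replicate block (Ltf and Mpo, 16.7%), 3 in edgeR (16.3%), 6 in DESeq2 (18.5%), 4 by unadjusted p (8.21%), and 0 to 3 with a replicate left out. At 3 d, 0 were called and 1 by unadjusted p (3.4%). The causes were not tested. At 14 d under the spleen label, each alternative run gave 0. For the difference between the labels only 4 were run, both pseudocounts, no filter and the replicate block, and each gave 0. The early minus late level at 14 d under the lymph node label was -0.62, -0.62 to -0.61 over other pseudocounts and scaling, and -0.83 to -0.28 with a replicate left out. Under the spleen label, Elane and Mmp8 fell below the filter at a mean of 50, and counts this low limit precision.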

Other observations

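Of the 19 listed genes of growth factors, chemokines and their receptors, 9 reached a mean of 10 in libraries labelled spleen and 12 in those labelled lymph node. Cxcr4 was higher than untreated at all 3 times under the lymph node label, by 1.56, 0.76 and 0.88 in log2 fold change (limma adjusted p = 7.12e-05, 0.00534 and 0.00376). Under the spleen label the row Csf2rb // Mir7676-2, the shared beta receptor chain of interleukin 3 and GM-CSF, fell by 0.44 at 1 d and by 0.35 at 3 d (adjusted p = 0.00657 and 0.049), and Csf1 fell by 0.33 at 1 d (adjusted p = 0.0306). Irf8, a factor that turns progenitors toward monocytes, fell by 0.33 at 3 d under that label (adjusted p = 0.0492), and Runx1 fell by 0.65 (adjusted p = 0.0353). Under the lymph node label Cebpd was still higher at 3 d (0.55, adjusted p = 0.0018), and Myb and Rrm2 were already lower then (-0.43 and -0.72, adjusted p = 0.0307 and 0.0298). With each library left out in turn, Cxcr4 passed in all 5 fits at 1 d, in 6 of 7 at 3 d and in 7 of 7 at 14 d, and Cebpd in 7 of 7 at 3 d. Csf2rb // Mir7676-2 passed in 10 of 10 fits at 1 d and in 1 of 10 at 3 d, Csf1 in 5 of 10, Irf8 in 1 of 10, Runx1 at 3 d in 2 of 10, Myb at 3 d in 3 of 7 and Rrm2 in 2 of 7.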
